A study of Mus musculus with 4 samples.

Results

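Whole-eye RNA taken 7 days after light exposure was compared with RNA from eyes without light, in 6-week-old mice that lack Abca4 and Rdh8. Genes were compared where their mean FPKM (fragments mapped to a gene, corrected for its length and for how deeply the library was read) over the 4 samples of the study was at least 1 and where they were not small RNA genes, which left 14074 of the 22558 genes listed. The 4 samples were a control without light and eyes from 3 h, 24 h and 7 days after light, each described as eyes of 3 mice. Every sample carries both deletions, so no wild-type eye is at hand and the genotype itself cannot be compared. The labels name the tissue as whole eye, while the extraction text speaks of retinas. The lens crystallins took 20.2% to 24.1% of all FPKM in the 4 samples, so lens RNA is in every one of them. The sources used here do not give light strength and duration, sex or time of day, or whether the 3 mice of a condition were pooled.

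Abca4 is a transporter that moves retinaldehyde out of photoreceptor discs, and Rdh8 is the photoreceptor enzyme that reduces it. Without both, bright light leaves reactive retinaldehyde in the outer segments, and rods can degenerate over the following days. Microglia are the resident macrophages of the retina: they take up debris through receptors such as TREM2 and the Fc receptors, which signal through the adaptors Tyrobp and Fcer1g, and they make complement C1q. Rods, the photoreceptors of dim light, make the bulk of retinal phototransduction transcripts under the transcription factors Crx, Nrl and Nr2e3.

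One FPKM value was deposited per gene and condition, so no difference below has a replicate check and nothing could be tested. Differences are those of log2(FPKM + 1) at 7 days minus the control, which shrinks the differences of weakly expressed genes, and folds are plain ratios of FPKM. Genes were counted by a rule of size, a difference of at least 1, and again at a lower rule of at least 0.5. The total FPKM ran from 626973 to 680305. Olfactory receptor genes seen in 1 sample alone were taken to rest on 1 fragment, and by that measure 5 FPKM corresponds to between 107 and 196 fragments for a gene of similar length. Counting error is then between 7.14% and 9.66%, and between 16.0% and 21.6% at 1 FPKM; it covers neither the animals nor the library preparation. Listed from the control through 3 h and 24 h to 7 days, as all series of 4 levels below are, Abca4 had levels of 56.3, 40.6, 34.3 and 37.4 FPKM. Rdh8 had levels of 10.5, 14.2, 11.9 and 11.02 FPKM. Both values cover whole genes and not only the deleted stretch, and with 1 genotype they check no label.

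Few genes differed at 7 days. The difference was at least 1 for 25 genes higher (0.178% of those compared) and 9 lower (0.0639%), and at least 0.5 for 131 higher (0.931%) and 110 lower (0.782%). At 3 h the counts at 1 were 44 (0.313%) and 16 (0.114%), and at 24 h 65 (0.462%) and 32 (0.227%). All 3 comparisons share the control. The differences at 7 days had a median of 0.00 and an SD over genes of 0.19, and 82.2% of genes lay within 0.2 of the control. Of the 25 higher genes, 12 were in the myeloid or leucocyte lists and none in the photoreceptor lists. These hold 0.924% and 0.895% of the genes compared and were written with the outcome known. At such shares a count of none says little. In these counts the myeloid or leucocyte lists are those of microglia, Fc receptor and general myeloid, complement, lysosome, monocyte and neutrophil genes. The photoreceptor lists include those of cones, the cilium and the ribbon synapse. Of the 131 higher by at least 0.5, 35 were in the myeloid or leucocyte lists. Of the 110 genes lower by at least 0.5, 24 were in the photoreceptor lists, the deleted Abca4 among them, and none in the myeloid or leucocyte lists. The 7-day level was the highest of the 4 samples for 20 of the 25 higher genes, a count that choosing them as higher favours, and for 22.3% of all genes.

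**Figure D1:**
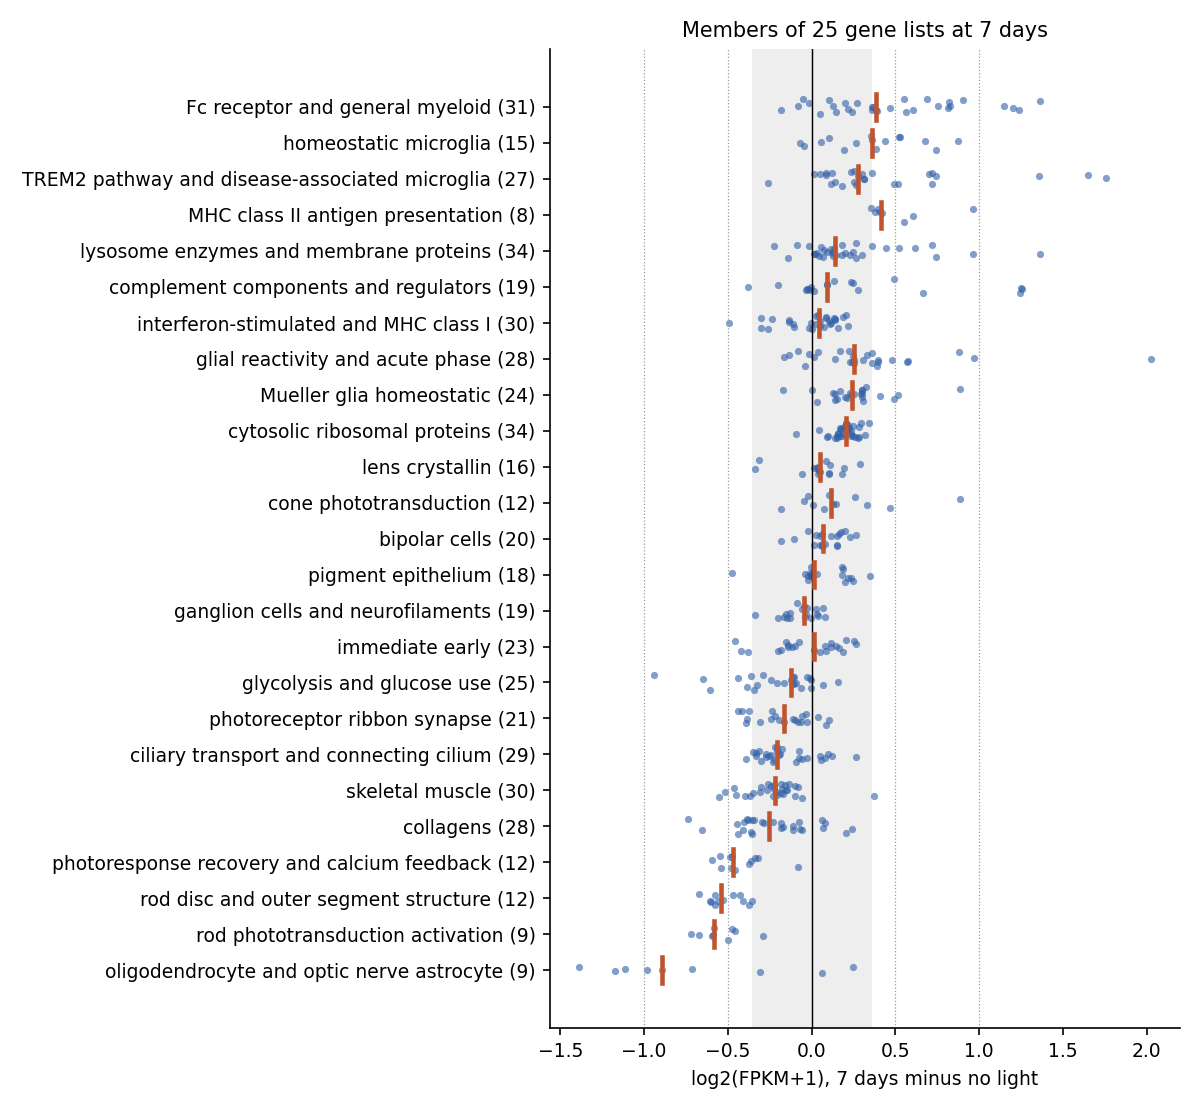
Differences at 7 days for the members of 25 gene lists. Each point is 1 gene, the x axis is log2(FPKM + 1) at 7 days minus no light, the red bar is the list median, the number in brackets is how many members passed the filter, the grey band holds the central 95% of all 14074 genes, and dotted lines mark 0.5 and 1. Trem2 lies at 1.76 in its list and Edn2 at 2.03 in the glial reactivity list, and the oligodendrocyte list has a median of -0.89.

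The 7-day sample also stood apart in sex-linked transcripts, which bears on every value below. The Y-linked genes Ddx3y, an RNA helicase, and Eif2s3y, a translation factor, had levels of 6.59 and 6.80 FPKM at 7 days. Uty and Kdm5d, a pair of Y-linked histone demethylase family genes, had 3.68 and 1.38 FPKM. Among the 8 Y-linked genes searched, the highest level in any other sample was 0.0137 FPKM. Xist, the RNA that coats the inactive X chromosome, had levels of 47.2, 53.8, 53.8 and 37.1 FPKM, the last being 71.9% of the mean of the other samples. Male RNA was thus in the 7-day sample and nearly absent from the rest, while the Xist level shows female RNA in all of them.

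The X-linked genes with a Y-linked partner were lower too. All 7 members of the list of Xist and partner genes that passed the filter were below 0 at 7 days (49.2% of all genes were), and each had its lowest level there. Kdm5c, a histone demethylase that escapes X inactivation, had levels of 28.4, 30.3, 26.7 and 21.8 FPKM from the control to 7 days, a difference of -0.37. Kdm6a, another such demethylase, had 14.7, 15.8, 12.9 and 11.6 FPKM, a difference of -0.31. The 458 X-linked genes compared had a median difference of 0.01. Sex and time cannot be told apart in any comparison of the 7-day sample.

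**Figure D2:**
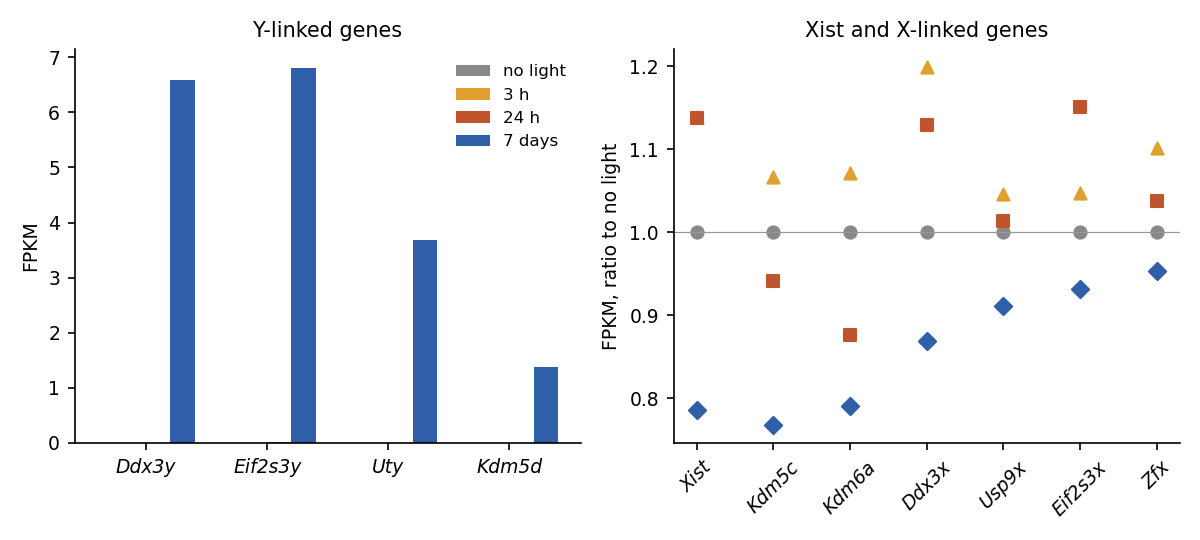
Sex-linked genes in the 4 samples. Left, FPKM of 4 Y-linked genes as bars from 0; right, the FPKM of Xist and 6 X-linked genes as a ratio to the control. Bars are visible at 7 days alone, and the 7-day point is the lowest for each of the 7 genes on the right.

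The largest group of higher genes was that of microglia and macrophages. In bulk samples, more cells of a type and more RNA per cell cannot be told apart, here as for every cell type below. The promoters of C1qb and C1qc, neighbouring genes for chains of complement C1q, are shown because the C1q genes moved together. Each is 300 bases, from 250 before to 50 after the annotated start, 5′ to 3′ on the gene's strand, from RefSeq on GRCm38.p6, which is not the mm9 build of the deposited values. C1qb lies at chr4:136886151-136886450 and C1qc at chr4:136892865-136893164, both on the minus strand. Capitals mark the letters GAGGAA, the core bound by the myeloid factor PU.1, or their reverse complement TTCCTC.
C1qb: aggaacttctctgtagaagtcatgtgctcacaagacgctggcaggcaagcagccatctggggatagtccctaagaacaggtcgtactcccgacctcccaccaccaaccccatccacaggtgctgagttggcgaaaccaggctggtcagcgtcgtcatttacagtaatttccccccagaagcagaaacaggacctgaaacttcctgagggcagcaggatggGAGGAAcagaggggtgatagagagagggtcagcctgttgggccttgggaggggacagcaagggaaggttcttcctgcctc
C1qc: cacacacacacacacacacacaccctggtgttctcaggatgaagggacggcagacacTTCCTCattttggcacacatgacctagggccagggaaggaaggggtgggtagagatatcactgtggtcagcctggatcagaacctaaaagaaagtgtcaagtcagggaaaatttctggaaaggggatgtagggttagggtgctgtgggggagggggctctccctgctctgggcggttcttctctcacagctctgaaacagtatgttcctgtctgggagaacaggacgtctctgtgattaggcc
The first base of the match was at -30 in C1qb and at -193 in C1qc, where 0 is the annotated start. The core was searched on both strands, and it was held by 26 of 67 promoters of genes in the 3 myeloid lists (38.8%) and by 28.3% of all 32851 promoters of the same length. A match is a string of letters and not a shown site.

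All 3 C1q genes, which form the recognition molecule of the classical complement pathway, had their highest level at 7 days. C1qa had levels of 22.03, 28.5, 24.1 and 53.5 FPKM. C1qb had 15.03, 21.03, 17.8 and 37.2 FPKM, and C1qc had 21.8, 26.2, 25.4 and 53.2 FPKM. The differences were 1.24, 1.25 and 1.25, or ratios of 2.43, 2.48 and 2.44. The complement list had a median of 0.09 over 19 members, with 12 above 0 (50.8% of all genes were) and 4 at or above 0.5, namely the C1q genes and Cfi. Without the C1q genes the median was 0.05 over 16 members, with 9 above 0. C3, the central component, had 3.96 FPKM in the control and 4.43 at 7 days. Cfi, a protease that inactivates complement, had 0.398, 0.304, 2.86 and 1.22 FPKM, a difference of 0.67, and was highest at 24 h.

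The signalling adaptors and the receptors named here, except Fcgr2b, also had their highest level at 7 days. Tyrobp, the adaptor of TREM2, had levels of 13.6, 14.5, 15.5 and 44.9 FPKM from the control to 7 days. The first 3 values lie close together and the fourth is 3.29 times the control. Trem2, the lipid and debris receptor itself, had 2.14, 2.37, 2.31 and 9.62 FPKM, a ratio of 4.49 and a difference of 1.76. Clec7a, a receptor for fungal glucans that marks activated microglia, had 1.01, 1.34, 1.76 and 4.15 FPKM, a ratio of 4.12. Here the levels at 3 h and 24 h were also above the control. Fcer1g, the adaptor chain of Fc receptors, had 8.04, 8.21, 11.3 and 19.03 FPKM, a difference of 1.15. Fcgr3, an Fc receptor that uses it, had 3.64, 5.78, 4.41 and 7.69 FPKM, a difference of 0.91. The inhibitory receptor Fcgr2b differed less, with 3.71, 3.76, 4.62 and 4.56 FPKM and a difference of 0.24, and was highest at 24 h.

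Markers of uptake and of activated microglia were next. Cd68, a membrane protein of phagocyte lysosomes, had levels of 4.08, 5.51, 6.48 and 12.1 FPKM, a difference of 1.37. Mpeg1, a pore-forming protein of macrophages, had 3.68, 4.66, 4.51 and 9.78 FPKM, a difference of 1.20. Ly86, a partner of a Toll-like receptor homologue, had 3.09, 3.48, 4.27 and 8.63 FPKM, a difference of 1.24. For all 3 the 7-day level was more than 1.5 times that of any other sample. Cst7, a protease inhibitor induced in activated microglia, fell below the filter, with 0.191, 0.196, 0.234 and 1.81 FPKM. Apoc1, an apolipoprotein outside the lists and named after its values were seen, had 2.45, 3.79, 3.29 and 6.70 FPKM.

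By lists, the TREM2 and disease-associated microglia genes had a median difference of 0.28 over the 27 of 30 that passed, with 26 above 0, 8 at or above 0.5 and 3 at or above 1. The Fc receptor and general myeloid genes had a median of 0.39 over 31 of 36, with 27 above 0, 13 at or above 0.5 and 4 at or above 1. The homeostatic microglia genes had a median of 0.36 over 15 of 18. Of these, 13 were above 0, 5 at or above 0.5 and none at or above 1 (0.178% of all genes were). No member of the 3 lists was lower by 0.5, where 0.782% of all genes were. Both shares are so small that a count of none says little here. The median over all genes was 0.00. Counting only members whose FPKM averaged 5 or more, the homeostatic median was 0.15 over 6 members and the Fc receptor and general myeloid median 0.82 over 9. Members of these lists overlap in the cells they mark, and the lists were written with the outcome known.

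The genes of resting microglia ranged from -0.07 to 0.87. Cx3cr1, the fractalkine receptor, had levels of 3.79, 2.33, 3.16 and 6.66 FPKM, a difference of 0.68. Aif1, the cytoskeletal marker known as Iba1, had 1.53, 1.70, 2.17 and 3.63 FPKM, a difference of 0.87. P2ry12, a nucleotide receptor of resting microglia, had 1.57, 1.59, 0.864 and 2.36 FPKM, so its lowest level was at 24 h. Csf1r, the receptor for the survival factor of microglia, had 13.5, 11.7, 10.5 and 17.6 FPKM, a difference of 0.35. Tmem119 and Itgam hardly differed from the control, with differences of 0.10 and -0.04. In 11 of the 15 members the highest level was at 7 days, as it was in 22.3% of all genes.

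**Figure D3:**
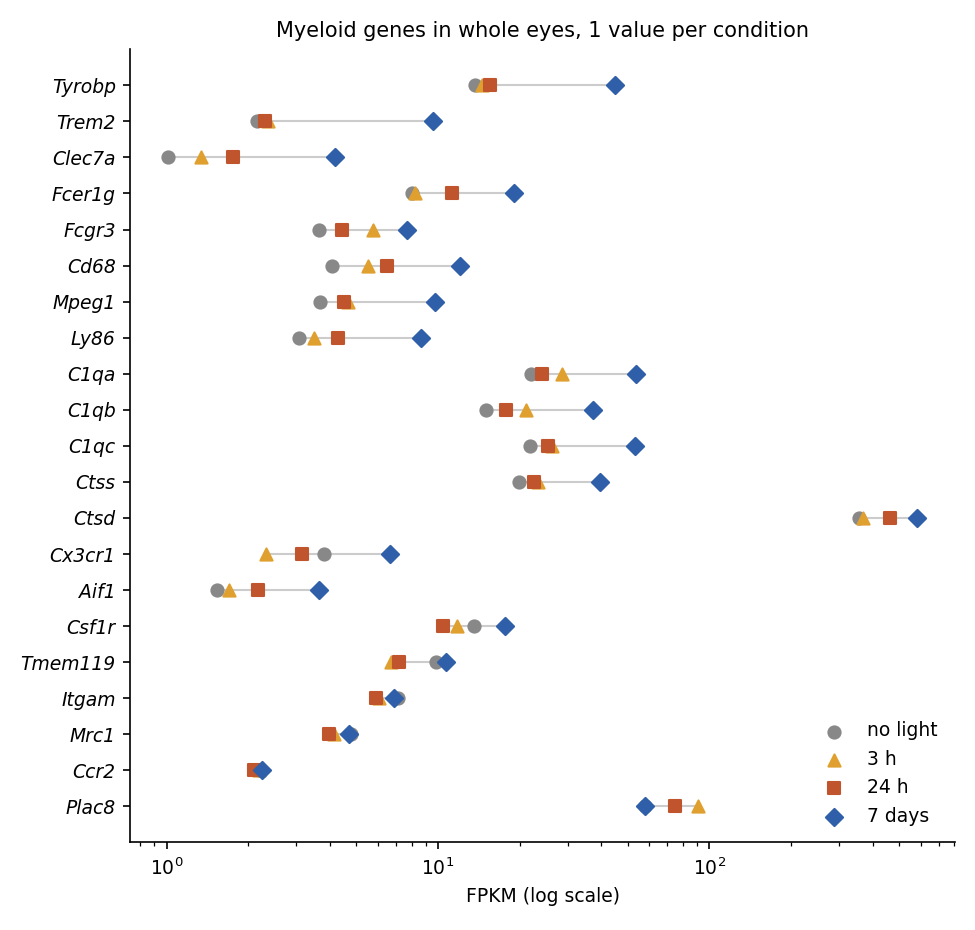
Levels of 21 myeloid genes in the 4 samples. The x axis is FPKM on a log scale, each symbol is 1 sample, and a grey line joins the lowest and highest. For Tyrobp, Trem2 and the C1q genes the 7-day symbol stands apart from the other 3, whereas for Itgam, Mrc1 and Ccr2 the symbols nearly coincide.

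Markers of monocytes, T cells and perivascular macrophages lay near the control or below the filter, whereas some neutrophil-list genes were higher. Ccr2, the receptor of inflammatory monocytes, had levels of 2.19, 2.19, 2.10 and 2.24 FPKM, and Plac8 had 57.9, 91.1, 74.8 and 58.03 FPKM. Of 21 monocyte and circulating leucocyte genes 4 passed the filter, with a median of 0.01. None was at 0.5, which says little for 4 genes (0.931% of all genes were). The list summed to 72.0 FPKM in the control and 71.9 at 7 days, most of it from Plac8. The T cell genes Cd3d, Cd3e and Cd3g were at 0.208 FPKM or less at 7 days. Mrc1 and Lyve1, markers of perivascular macrophages, had differences of -0.02 and -0.18. In the neutrophil list, which summed to 11.4, 14.6, 26.4 and 18.8 FPKM from the control to 7 days, S100a9 had 1.22, 2.41, 3.54 and 4.80 FPKM and S100a8 had 1.14, 0.802, 2.13 and 3.49. That list had a median of 0.32 over the 6 of 14 that passed, with 2 at or above 1, and its part in the myeloid values was not tested. The granule genes Mpo and Elane were at 0.00784 and 0.0255 FPKM at 7 days. The erythroid list, which marks blood, summed to 143 FPKM in the control and 112 at 7 days.

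Antigen presentation and lysosomal genes were also higher, the former with a median above those of the 3 myeloid lists and the latter below them. The first order depends on the pseudocount and on the filter. With a pseudocount of 0.1 the class II median was 0.44, below 0.49 for homeostatic microglia and 0.56 for the Fc receptor and general myeloid list. With a mean FPKM of at least 5 it was 0.49, below 0.82 for the Fc receptor and general myeloid list. The homeostatic and TREM2 lists were then lower, at 0.15 and 0.28. All 8 of 11 MHC class II genes that passed were above 0 and had their highest level at 7 days, with a median difference of 0.41 and 3 at or above 0.5. Ctss, the cathepsin that trims the invariant chain, had levels of 19.8, 23.3, 22.6 and 39.6 FPKM, a difference of 0.96. H2-Aa, the alpha chain of a class II molecule, had 32.97, 34.8, 39.8 and 50.7 FPKM, a difference of 0.61. Cd74, the invariant chain, had 69.5, 68.3, 79.5 and 91.8 FPKM, a difference of 0.40. The 30 interferon-stimulated and class I genes had a median of 0.04. None was at or above 0.5, which says little, since 0.931% of all genes were. Of 34 lysosomal genes 30 were above 0, with a median of 0.14. Ctsd, an abundant lysosomal protease, had 355, 369, 461 and 584 FPKM, a difference of 0.72, and Ctsz, a related one, had 45.9, 46.7, 55.1 and 71.1. Widely expressed lysosomal genes lay near the control, such as Lamp1 at a difference of 0.04 and Tpp1 at -0.02.

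Glial genes were mostly above the control as well, below their 24 h level where reactive. Gfap, the intermediate filament of reactive glia, had levels of 18.3, 15.5, 93.03 and 36.8 FPKM, so at 7 days it was 2.01 times the control and under its 24 h level. Edn2, an endothelin made by stressed photoreceptors, had 0.761, 0.688, 10.01 and 6.17 FPKM, and Fgf2, a survival factor, had 4.197, 4.75, 8.27 and 6.70. Serpina3n, an acute phase protease inhibitor, had 28.5, 25.4, 197 and 33.6 FPKM and was back near the control. The glial reactivity list had a median of 0.25 at 7 days and 0.84 at 24 h, with 5 of 28 members at or above 0.5 at 7 days. Homeostatic Müller glia genes had a median of 0.24, with 23 of 24 above 0. Among them Glul, glutamine synthetase, had 769, 849, 395 and 884 FPKM, and Aqp4, a water channel, had 23.7, 16.7, 21.8 and 29.4. Crym, a thyroid hormone binding protein, had 28.8, 20.9, 184 and 53.96 FPKM.

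**Figure D4:**
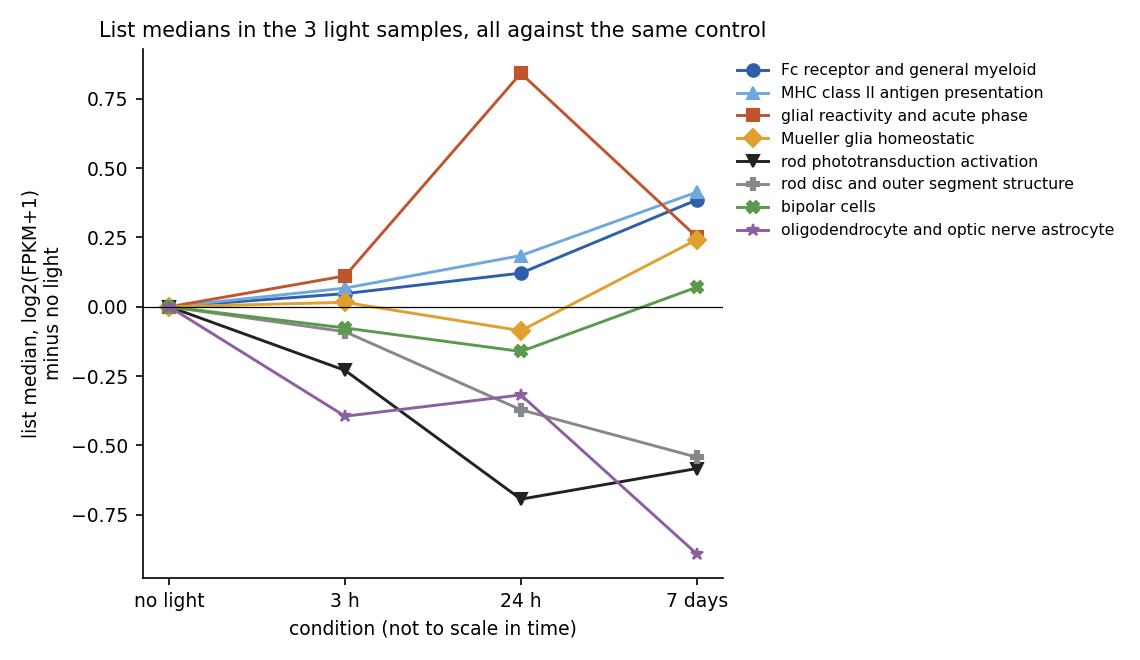
Medians of 8 gene lists in the 3 light samples against the shared control. The x axis gives the conditions without a time scale and the y axis the list median of log2(FPKM + 1) minus no light. The glial reactivity median peaks at 24 h with 0.84, whereas the Fc receptor and general myeloid median is highest at 7 days with 0.39 and the oligodendrocyte median lowest there with -0.89.

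Rod genes were lower in the 7-day sample. Promoters of Nrl, the transcription factor that makes a photoreceptor a rod, and of Gngt1, the gamma subunit of rod transducin, are shown as a regulator and a target of the rod program. They come from the same table, Nrl from chr14:55524203-55524502 on the minus strand and Gngt1 from chr6:3993758-3994057 on the plus strand. Capitals mark TAATCC, the core bound by Crx, or its reverse complement GGATTA.
Nrl: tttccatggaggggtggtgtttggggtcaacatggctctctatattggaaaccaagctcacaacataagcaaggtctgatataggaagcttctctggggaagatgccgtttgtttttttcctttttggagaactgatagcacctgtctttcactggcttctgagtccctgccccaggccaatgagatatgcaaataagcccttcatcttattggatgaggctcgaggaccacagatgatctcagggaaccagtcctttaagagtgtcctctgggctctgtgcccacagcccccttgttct
Gngt1: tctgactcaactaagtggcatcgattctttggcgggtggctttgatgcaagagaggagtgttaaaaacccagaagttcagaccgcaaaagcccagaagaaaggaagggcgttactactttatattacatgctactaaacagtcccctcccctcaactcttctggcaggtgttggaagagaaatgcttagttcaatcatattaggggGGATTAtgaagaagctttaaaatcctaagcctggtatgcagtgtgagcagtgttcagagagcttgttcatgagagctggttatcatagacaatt
These letters were found in Gngt1, with the first base at -44, and not in this window of Nrl. They were in 10 of 26 promoters of genes in the 3 rod lists (38.5%) and in 7.06% of all promoters of the table. The myeloid lists held them in 8.96% of promoters, and the rod lists held the PU.1 core in 23.1%.

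The activation cascade, from transducin to the cation channel, was lower as a whole. Gnat1, the alpha subunit of transducin, had levels of 2679, 2312, 1581 and 1787 FPKM, a difference of -0.58. Pde6a, a catalytic subunit of the phosphodiesterase, had 301, 228, 186 and 188 FPKM, a difference of -0.67. Cnga1, a subunit of the cation channel, had 154, 131, 98.2 and 109 FPKM, a difference of -0.50. Each had its lowest level at 24 h, as did all 9 members that passed of 10 in the list. None of the 9 was above 0 at 7 days and 6 were at or below -0.5. None was at or below -1, which says little since 0.0639% of all genes were, and the median was -0.58. Gngt1 differed least, with 682, 687, 475 and 557 FPKM and a difference of -0.29.

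Recovery and outer segment genes were lower too, with another order of times. Of 12 genes for recovery and calcium feedback none was above 0, and the median was -0.47. Grk1, a kinase of the recovery step, had levels of 177, 214, 142 and 121 FPKM, a difference of -0.55, and its lowest level was at 7 days. Sag, the rod arrestin, had 1200.2, 1558, 1330 and 1134 FPKM, a difference of -0.08, so it hardly differed from the control. Of 12 genes for discs and outer segments none was above 0, 7 were at or below -0.5 and the median was -0.54. The 7 include Abca4, deleted in every sample, with a difference of -0.58. Without genes in more than 1 list, Abca4 among them, the median was -0.53. Prph2, the tetraspanin of disc rims, had 1243, 1034, 758 and 779 FPKM, a difference of -0.67. Impg2, a proteoglycan of the matrix around photoreceptors, had 46.5, 45.01, 115 and 35.7 FPKM, so it was above the control at 24 h and below it at 7 days. Rbp3, the retinoid carrier of that matrix, had 351, 374, 400 and 237 FPKM.

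The 13 photoreceptor transcription factors that passed had a median of -0.21, with 12 below 0 and 3 at or below -0.5. The lowest level was at 24 h for 7 of them and at 7 days for 6. Nrl had levels of 588, 567, 304 and 380 FPKM, a difference of -0.63. Nr2e3, its partner in silencing cone genes, had 168, 107, 72.3 and 105 FPKM, a difference of -0.67. Crx, which acts in rods and cones, had 236, 236, 164 and 172 FPKM, a difference of -0.46. Otx2, needed for photoreceptor and bipolar cells, had 55.5, 52.8, 52.6 and 54.6 FPKM, a difference of -0.02. Genes of the cilium had a median of -0.21 over 29 members and those of the ribbon synapse -0.16 over 21. None in either list was at or below -0.5. Of all genes 0.782% were, so in lists of this size that count says little.

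Cones and inner retina did not share the rod values. The 12 cone genes that passed had a median of 0.12, with 9 above 0. Arr3, the cone arrestin, had levels of 41.5, 82.1, 36.2 and 77.3 FPKM, a difference of 0.88, with high values at 3 h and 7 days. Gnat2, the cone transducin, had 42.1, 41.1, 25.8 and 42.3 FPKM, and Opn1sw, the short-wave opsin, had 130, 117, 60.2 and 115, so both were low at 24 h alone. Bipolar cell genes had a median of 0.07 (17 of 20 above 0), amacrine and horizontal genes -0.04 (6 of 15) and ganglion cell genes -0.04 (5 of 19). None of these 3 lists had a member past 0.5 in either direction. Of all genes 0.931% were that much higher and 0.782% lower, so in lists of this size the count says little. The pigment epithelium list had a median of 0.02 over 18 members. Ttr, a carrier of retinol and thyroid hormone made by that epithelium, had 710, 872, 779 and 1077 FPKM. Skeletal muscle genes, a sign of tissue attached to the eye, had a median of -0.22 with 29 of 30 below 0. The summed level of the muscle list was 3191, 3370, 2063 and 2773 FPKM, and its part in the rod values was not tested.

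Genes of oligodendrocytes and the optic nerve, where these cells wrap ganglion cell axons behind the eye, were lower at 7 days. Their median was -0.89 over the 9 of 14 genes that passed, with 6 at or below -0.5 and 3 at or below -1. Over the 5 members whose FPKM averaged 5 or more it was -0.31, above the medians of the 3 rod lists, which that filter left as they were. Cldn11, the claudin of myelin tight junctions, had levels of 7.65, 4.47, 4.51 and 2.30 FPKM, a difference of -1.39. Mbp, myelin basic protein, had 62.7, 47.4, 51.4 and 33.3 FPKM, a difference of -0.89. In both, the control was highest, 3 h and 24 h lay between, and 7 days was lowest. Mobp had 3.65, 3.36, 3.26 and 1.15 FPKM and Mag, an adhesion protein of myelin, had 3.03, 2.07, 1.83 and 1.04. Mal and Sox10, which other cells of the eye also express, were the 2 members above 0, with differences of 0.25 and 0.06. Below the filter, Mog had 1.41 and 0.414 FPKM in the control and at 7 days, and the lineage factor Olig1 had 0.948 and 0.216.

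Genes of peripheral nerve did not share these values. Prx, which organises Schwann cell myelin, had levels of 6.65, 5.39, 5.79 and 6.49 FPKM, a difference of -0.03, and Pmp22, another peripheral myelin protein, had a difference of 0.17. The Schwann cell and nerve list, which shares members such as Mal and Sox10 with the oligodendrocyte list, had a median of 0.12 over 9 members. Ganglion cell genes, whose axons form the optic nerve, had the median of -0.04 given above. The labels do not say how much optic nerve was left on each eye, and its part in these values was not tested.

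**Figure D5:**
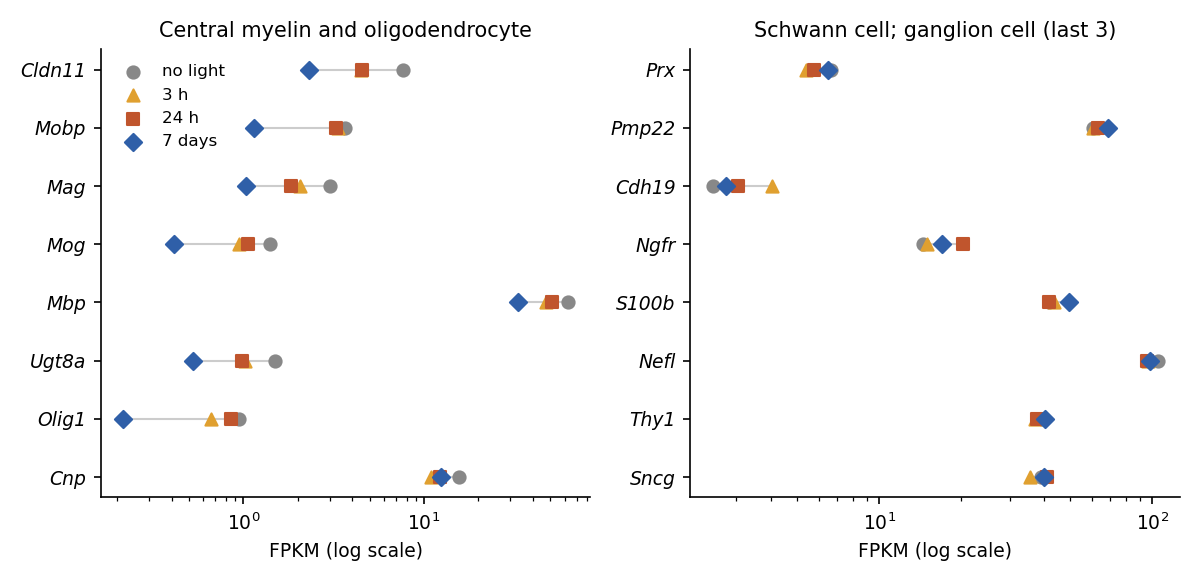
Levels of myelin and nerve genes in the 4 samples, with FPKM on a log scale and 1 symbol per sample. On the left the 7-day symbol is lowest for Cldn11, Mobp, Mag, Mog, Mbp, Ugt8a and Olig1 and the control highest, and on the right the peripheral nerve and ganglion cell genes show no such order.

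Collagen and elastin genes were lower, and nearer the control than in the earlier light samples. Eln, elastin, had levels of 22.4, 6.96, 5.89 and 9.94 FPKM, a difference of -1.10. Col3a1, a fibrillar collagen, had 166, 76.2, 60.8 and 98.9 FPKM, a difference of -0.74, and Col1a1, another, had 468, 224, 231 and 358, a difference of -0.39. Of 28 collagens 23 were below 0 with a median of -0.26, and the control held the highest level for 23 of them. The 20 small proteoglycan and fibroblast genes had a median of -0.02, and Dcn, decorin, had 768, 760, 728 and 846 FPKM. Slc4a11, a transporter of the corneal endothelium, had 15.6, 4.12, 5.79 and 8.66 FPKM. Plat, tissue plasminogen activator, had 20.2, 11.5, 12.1 and 11.7 FPKM, so it was similarly low at all 3 times. Angptl7, a secreted protein of cornea and trabecular meshwork, had 60.9, 284, 149 and 119 FPKM, highest at 3 h.

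Some metabolic and clock genes differed as well. Pdk4, a kinase that holds back pyruvate use, had levels of 6.45, 10.5, 1.99 and 2.88 FPKM, and Angptl4, an inhibitor of lipoprotein lipase, had 5.76, 6.71, 4.87 and 2.71. Of 25 genes for glycolysis and glucose use 23 were below 0, with a median of -0.12 and 3 at or below -0.5. Hk2, a hexokinase of photoreceptors and muscle, had 57.5, 54.5, 36.3 and 37.4 FPKM. Dbp, a clock output factor, had 40.6, 58.2, 86.2 and 82.4 FPKM, a difference of 1.01, and Arntl, the positive arm of the clock, had 25.5, 26.01, 18.3 and 16.3, a difference of -0.62. Per2 and Per3, repressors of the clock, had differences of 0.78 and 0.65. Time of day was not given, and its part was not tested. Of 34 ribosomal protein genes 33 were above 0, with a median of 0.20. None reached 0.5, which says little since 0.931% of all genes did. The medians at 3 h and 24 h were 0.26 and 0.25. The control held the lowest level for 32 of the 34, as it did for 26.7% of all genes.

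Of the other genes the naming rule picked, several are uncertain. Hist1h4j and Hist1h4k are near-identical histone genes whose fragments may be shared: the first was listed at 0 in the control and had 5.07 FPKM at 7 days, and the second had 12.3, 27.9, 24.4 and 32.2. Amd1, which has a near-identical copy, had 9.12, 0.0225, 13.4 and 1.58 FPKM. Hba-a2, an alpha globin, had 45.8, 52.9, 26.9 and 25.99 FPKM and Beta-s, a beta globin, had 177, 207, 110 and 103, in a family of close copies; both mark blood in the sample. Lars2, a mitochondrial leucyl-tRNA synthetase, had 2740, 3552, 3850 and 5510 FPKM. Pisd-ps1, a pseudogene, had 16.9, 21.6, 16.8 and 7.08 FPKM. Ifi27l2a, an interferon-induced gene, had 69.1, 102.9, 57.6 and 37.4 FPKM, and Csrp3, a muscle protein, had 16.5, 14.4, 7.57 and 9.74.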

How the data were processed

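RNA from 4 samples of mouse eye, 1 per condition, was sequenced from TruSeq RNA libraries, per the labels' protocols. The deposited values are FPKM; the submitters' processing notes name TopHat2 (version 2), Cuffdiff 2.2.1 and bcl2fastq 1.8.3, with the mm9 build. Not given in the sources used here are the annotation, the strand, Cuffdiff's scaling and the treatment of multiply mapped fragments. Each value is relative to its library, so a few abundant transcripts can shift all others.

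Kept were the 14194 genes whose FPKM averaged 1 or more, less 120 small RNA genes named Snora, Snord, Scarna, Mir or Rnu. Differences used log2(FPKM + 1), computed with pandas 2.3.3 and numpy 2.4.6 and tested on simulated data. With 1 sample per condition no test was possible. Named were the 15 largest increases and 15 largest decreases where FPKM averaged 5 or more, passing over unnamed gene models, plus Abca4, Rdh8, sex-linked genes and members of the 60 gene lists. Values of a few genes that this rule picks are not reported here. The members, lists and rules were chosen with earlier results of these data known. Alternatives were a pseudocount of 0.1, other filters, 2 rescalings, protein-coding genes only, and the 3 h or 24 h sample as reference. Gene classes and promoters came from RefSeq tables of GRCm38, to which 22327 of 22558 symbols (99.0%) matched.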

Additional observations from a re-analysis of the deposited data

Results flagged for a closer look

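Some values had opposite signs at 7 days and at an earlier time against the same control; none of these differences was tested. The homeostatic microglia list had a median of 0.36 at 7 days and -0.17 at 24 h, and the cone list 0.12 and -0.20. Amd1 differed by -1.97 at 7 days and 0.51 at 24 h. Pdk4 differed by -0.94 at 7 days and 0.63 at 3 h, and Ifi27l2a by -0.87 and 0.57.

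Small RNA genes were set aside. Among the 120 of them with a mean FPKM of at least 1, 33 were at least 1 log2 unit higher at 7 days than in the control, 21 of which were listed at 0 in the control, and 18 were lower, 14 of which were listed at 0 at 7 days.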

How the results depend on the processing

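No paired analysis was possible because each condition has 1 sample. For the same reason no replicate could be left out. With a pseudocount of 0.1, which weighs low genes more, 51 genes were higher and 19 lower by at least 1, and 226 higher and 182 lower by at least 0.5; the medians became 0.49 for homeostatic microglia, 0.56 for the Fc receptor and general myeloid list and -1.22 for oligodendrocytes. With a mean FPKM of at least 5, 12 genes were higher by at least 1 and 66 by at least 0.5, from fewer genes tested, and the same medians were 0.15, 0.82 and -0.31. Without a filter the oligodendrocyte median was -0.74 and that of lacrimal and Harderian gland genes 0.00. The rescaling without lens, muscle, erythroid, surface epithelium and small RNA genes shifted levels at 7 days by up to -0.08 log2 units, less for weakly expressed genes, and gave 183 genes lower by at least 0.5; the cause of the higher count is that shift. Without genes in more than 1 list the TREM2 median was 0.40.

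Against the 3 h sample the medians at 7 days were -0.30 for rod activation, -0.61 for recovery, -0.43 for discs, 0.10 for glial reactivity, -0.50 for oligodendrocytes, 0.32 for collagens, -0.067 for muscle, -0.089 for lacrimal and Harderian gland and -0.065 for ribosomal proteins. Against the 24 h sample they were 0.51 for homeostatic microglia, 0.29 for MHC class II, 0.15 for rod activation, -0.012 for recovery, -0.17 for discs, 0.053 for photoreceptor transcription factors, -0.55 for glial reactivity, -0.47 for oligodendrocytes, 0.29 for collagens, 0.45 for muscle and -0.042 for ribosomal proteins. Of 238 values of named genes under the alternatives that kept the control as reference, none changed sign and 7 moved by 0.1 or more. The 3 h and 24 h references were not part of that count, and some named genes, such as Gfap against 24 h, changed sign there. The lists' remaining values are limited by 1 sample per condition and by counting error at low FPKM.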

Other observations

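Some further genes are given here, named after their values were seen. Ctgf, Cxcl5 and Ccl12 are members of gene lists not described above. From the control to 7 days, Ctgf, a matrix-associated growth factor, had levels of 56.3, 123, 62.2 and 97.8 FPKM. Adh6a, an alcohol dehydrogenase, had 0.325, 3.50, 4.47 and 2.21 FPKM, and Xkrx had 3.99, 0.264, 0.411 and 0.244 FPKM, so for both the control stood apart from the 3 light samples. Among chemokines, Cxcl5 had 1.76, 1.79, 4.47 and 4.44 FPKM. Ccl12 had 2.29, 0.820, 7.29 and 2.09 FPKM, so it was near the control at 7 days. The 21 chemokine genes that passed had a median of 0.17. Of these, 17 were above 0 (50.8% of all genes were) and 4 at or above 0.5 (0.931% were). Lalba, a milk protein gene, had 0.301, 0.247, 5.38 and 3.38 FPKM. Gm12238, a snoRNA in the reference table whose name the small RNA rule does not catch, was listed at 0 in the control and had 10.3 FPKM at 7 days.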
